A study of Mus musculus with 4 samples.

Results

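Samd4, Cdhr1, Rpgrip1, Supt16, Arhgap22, Chd8, Plac9a, Tmem254a, Duxbl2 and Tep1 are 10 genes of mouse chromosome 14, the chromosome that also carries Ndrg2, the gene knocked out in the study. They were picked by name because their RNA differed between the Ndrg2KO and WT samples in an earlier reading of the same arrays, and their probes were then found through the RefSeq accession of each spot. Of 39429 probes and 20832 genes with a symbol on the array, these were 12 probes of 10 genes: Rpgrip1 and Tmem254a had 2 probes each and the other 8 genes had 1. The difference between the groups is therefore what chose these genes, so their ratios are given as a description, with no p-value, and support nothing.

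Total RNA of the cortex on the injured side was compared between mice labelled Ndrg2KO and WT mice. Both groups had undergone permanent occlusion of the middle cerebral artery by electrocoagulation (pMCAO), a model of ischaemic stroke, and the cortex was taken 24 h later. All mice were C57BL/6 and 8 weeks old, and every sample was ischaemic. Each of 4 2-colour arrays on 1 slide carried 1 Ndrg2KO sample in Cy3 and 1 WT sample in Cy5 of the same replicate number. The labels do not say which part of Ndrg2 was deleted, nor whether the samples of a group are separate animals, so a p-value covers the spread between these samples, which may be technical. No array had the dyes exchanged, so a dye effect of a single probe and an effect of genotype cannot be told apart.

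Of the 43020 non-control spots of an array, the scanner software called 73.6 to 74.9% clearly above background in the Ndrg2KO channel and 76.7 to 79.0% in the WT channel, and 0 were saturated. The probe of the targeted gene, Ndrg2, had log2 levels of 15.50, 15.56, 15.57 and 15.56 in the samples labelled Ndrg2KO, against 15.72, 15.78, 15.75 and 15.67 in WT. The groups did not overlap, and the log2 ratio was -0.18 ± 0.05 (SD, n = 4; limma, adjusted p = 0.0244), but with the scanner software's own ratios it was -0.04 (limma, adjusted p = 0.528), and with each array centred on its median in place of loess -0.81 (limma, adjusted p = 4.9e-06). A probe outside a deleted stretch would check nothing, so the genotype was not checked by these values and the samples are named by their label throughout. Of 7 astrocyte markers 3 fell in the samples labelled Ndrg2KO, namely Aqp4 by 0.41, Aldoc by 0.39 and Slc1a2 by 0.30 on the log2 scale at their brightest probes (the other probe of Aqp4 was at -0.31, those of Slc1a2 at -0.46 and -0.08), and the summed linear level of all 7 was 145108 to 165692 there, against 190728 to 202503 in WT. With the scanner software's ratios Aldoc did not pass (limma, adjusted p = 0.073). Gfap did not pass at its brightest probe, at -0.30, nor at a probe at -0.15. Its remaining probe fell by 0.62 (limma, adjusted p = 0.00704). In limma 0 of 7 neuronal markers passed at their brightest probes, 2 of them at an unadjusted p under 0.05. Their summed levels were 214769 to 239932 in the samples labelled Ndrg2KO and 220722 to 226524 in WT. Rbfox3 was at -0.12 at its brightest probe and -0.05 at another, but a further probe rose by 0.35 (limma, adjusted p = 0.00605). Of 5 microglial markers 1 fell, Cx3cr1 by 0.29 with its other probe at -0.09, and the summed levels did not overlap, at 49499 to 53315 in the samples labelled Ndrg2KO and 55628 to 57514 in WT. In limma 0 of 5 endothelial markers passed, 4 of them at an unadjusted p under 0.05, with summed levels of 11857 to 16954 in the samples labelled Ndrg2KO and 12604 to 13634 in WT. They went both ways, with Cldn5 at 0.29 and Flt1 at 0.06 against Cdh5 at -0.40, Pecam1 at -0.20 and Tek at -0.15. An unadjusted p under 0.05 is not rare here, as 20.9% of all probes tested passed even the adjusted threshold in limma. Of 4 neutrophil markers 1 fell, Elane by 0.22, with summed levels of 3185 to 10019 in the samples labelled Ndrg2KO and 5654 to 9452 in WT. Of 5 oligodendrocyte markers 1 rose, Mbp by 0.29 with its other probes at -0.11 and 0.11, a rise that turned to -0.16 with median centring. Summed oligodendrocyte levels were 118412 to 174086 in the samples labelled Ndrg2KO and 137312 to 150425 in WT. In such bulk tissue, fewer cells of a type and less RNA per cell cannot be told apart, and the part of cell composition in the values of the 10 genes was not tested.

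The 10 genes do unlike jobs. Samd4 encodes Smaug1, a protein that binds hairpins in messenger RNAs, represses their translation and leads them to the deadenylation machinery. Cdhr1, a cadherin of the photoreceptor outer segment that is also made by mitral cells of the olfactory bulb, and Rpgrip1, which anchors the GTPase regulator RPGR in the connecting cilium, are best known from the retina. Supt16 encodes the large subunit of the histone chaperone FACT, Chd8 an ATP-driven chromatin remodeller, Tep1 a protein of the vault particle that also binds telomerase RNA, and Arhgap22 a protein that switches off the small GTPase Rac. Plac9a, Tmem254a and Duxbl2 lie in a stretch of chromosome 14 that holds several near-identical gene copies. Plac9a encodes a small protein named for its expression in placenta, Tmem254a a predicted membrane protein, and Duxbl2 belongs to the Dux family of homeobox genes.

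Upstream sequences are shown for the genes with the highest and the lowest ratio, Samd4 and Cdhr1. They are the 250 bases before each annotated start, from the RefSeq promoter table on GRCm38.p6, written 5′ to 3′ on the strand of the gene. Samd4 has 2 annotated starts, with windows at chr14:46882715-46882964 and chr14:47068727-47068976 on the plus strand, and Cdhr1 has 1, with its window at chr14:37098348-37098597 on the minus strand. Capitals mark matches, on either strand, to the GC box GGGCGG or the CCAAT box CCAAT.
Samd4, first start: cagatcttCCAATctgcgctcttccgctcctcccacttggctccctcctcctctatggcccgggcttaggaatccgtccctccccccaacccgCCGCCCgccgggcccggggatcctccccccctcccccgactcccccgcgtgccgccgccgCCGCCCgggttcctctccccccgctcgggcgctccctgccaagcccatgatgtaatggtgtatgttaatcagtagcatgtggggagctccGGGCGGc
Samd4, second start: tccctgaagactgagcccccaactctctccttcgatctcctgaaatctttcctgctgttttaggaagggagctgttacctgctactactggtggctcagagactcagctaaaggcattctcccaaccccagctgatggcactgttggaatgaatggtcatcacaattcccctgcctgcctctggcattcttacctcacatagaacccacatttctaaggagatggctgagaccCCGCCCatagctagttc
Cdhr1: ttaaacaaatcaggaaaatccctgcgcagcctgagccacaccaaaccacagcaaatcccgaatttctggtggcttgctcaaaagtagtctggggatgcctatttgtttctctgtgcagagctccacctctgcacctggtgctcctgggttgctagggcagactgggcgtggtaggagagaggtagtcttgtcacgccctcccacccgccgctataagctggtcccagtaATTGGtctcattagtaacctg
The first Samd4 window held 3 GC boxes and 1 CCAAT box, at 70% G and C and with 22 CpG pairs. The second Samd4 window held 1 GC box, and the Cdhr1 window 1 CCAAT box. Of 32841 such windows in the table, 32.7% held a GC box and 33.9% a CCAAT box, so both matches were common. The core letters of the photoreceptor factor CRX, TAATCC, were in neither gene's windows but had 1 match in the window of Rpgrip1, against 6.25% of all windows. In which transcript part each probe lies was not known here, so a start cannot be tied to a ratio.

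The values of the 12 probes spanned a wide range, and at these probes the arrays repeated each other closely. All 12 probes were well above background in all 8 channels. Of them 6, from 5 genes, were higher in the samples labelled Ndrg2KO and 6, from the other 5 genes, were lower. All 4 arrays had the same sign at each of the 12, beside 43.3% of all probes tested. A change of at least 1.5-fold was found at 6 of the 12, beside 0.572% of all probes tested, or 0.463% when the limma threshold had to be passed too. The limma threshold, an adjusted p under 0.05, was passed by 12 of 12, and 20.9% of the 30259 probes tested on these arrays passed it, 9.29% as higher and 11.7% as lower. Higher probes were 44.4% of those that passed, but 53.5% with the scanner software's ratios and 33.5% with median centring. The levels of the groups did not overlap in 12 of 12, beside 19.5% of all probes tested. Because this contrast chose the genes, nothing can be read from these counts, nor from the sizes and spreads that follow. The median size of the log2 ratio was 0.65 over the 12 probes, against 0.09 over all probes tested, while the median SD over the 4 arrays was 0.0728 against 0.0968. The 12 SDs ran between 0.0311 for a probe of Rpgrip1 and 0.24 for Cdhr1.

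**Figure D1:**
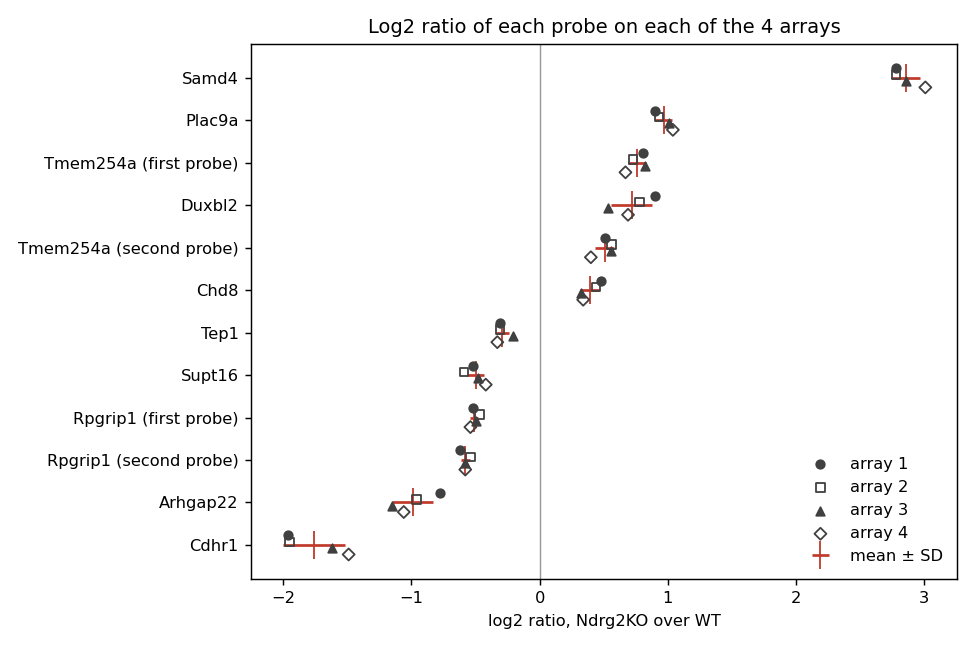
Log2 ratio of Ndrg2KO over WT (x axis) for each of the 12 probes (rows), with a marker for each of the 4 arrays and a cross for the mean ± SD. Samd4 stands far to the right at 2.86 and Cdhr1 far to the left at -1.76, and the 4 arrays of every probe lie on the same side of 0.

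Samd4 had the highest ratio of the 12. Its log2 levels were 9.35, 9.22, 9.29 and 9.32 in the samples labelled Ndrg2KO, against 6.57, 6.45, 6.44 and 6.31 in WT. The groups were far apart, and each was tight: the Ndrg2KO levels averaged 9.30 ± 0.05 and the WT levels 6.44 ± 0.11 (SD, n = 4 each). The log2 ratios of the 4 arrays were 2.78, 2.78, 2.86 and 3.01, with a mean of 2.86 ± 0.11, or 7.24-fold higher. The probe was 10.6 to 13.9 times its local background in the Ndrg2KO channel but 1.48 to 1.79 times in the WT channel. The WT level was thus dim, and the size of the ratio moved with the handling of background: it was 4.38 ± 0.21 with the scanner software's ratios, 4.16 to 4.60 over the arrays, and 3.72 when the offset added after background correction was 1 in place of 50. The direction was the same in each of the 12 alternatives run.

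Cdhr1 had the lowest ratio of the 12. Its log2 levels were 7.83, 8.06, 8.07 and 8.36 in the samples labelled Ndrg2KO, against 9.80, 10.01, 9.70 and 9.86 in WT. The highest Ndrg2KO level lay well under the lowest WT level, and the Ndrg2KO samples were the more spread, at 8.08 ± 0.22 against 9.84 ± 0.13 (SD, n = 4 each). The log2 ratios were -1.96, -1.95, -1.62 and -1.49, with a mean of -1.76 ± 0.24, or 3.38-fold lower. Arrays 1 and 2 thus stood together below arrays 3 and 4, a split that the whole arrays also had: over all probes tested, log2 ratios correlated at 0.726 between arrays 1 and 2 and at 0.626 between arrays 3 and 4, against 0.410 to 0.468 between the other pairs. The probe was 3.03 to 5.81 times its local background in the Ndrg2KO channel and 13.8 to 20.4 times in the WT channel. Because Cdhr1 is known from mitral cells of the olfactory bulb, markers of those cells are given beside it: 0 of 4 tested passed in limma, and 0 at an unadjusted p under 0.05 (Tbx21 at -0.06, Eomes at -0.03, Lhx1 at 0.01 and Slc17a6 at -0.12), Lhx5 was too dim to test, and their summed level was 1185 to 1417 in the samples labelled Ndrg2KO and 1271 to 1594 in WT. Such low sums include the offset of 50 added to every probe, which draws the ratios of dim probes towards 0.

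**Figure D2:**
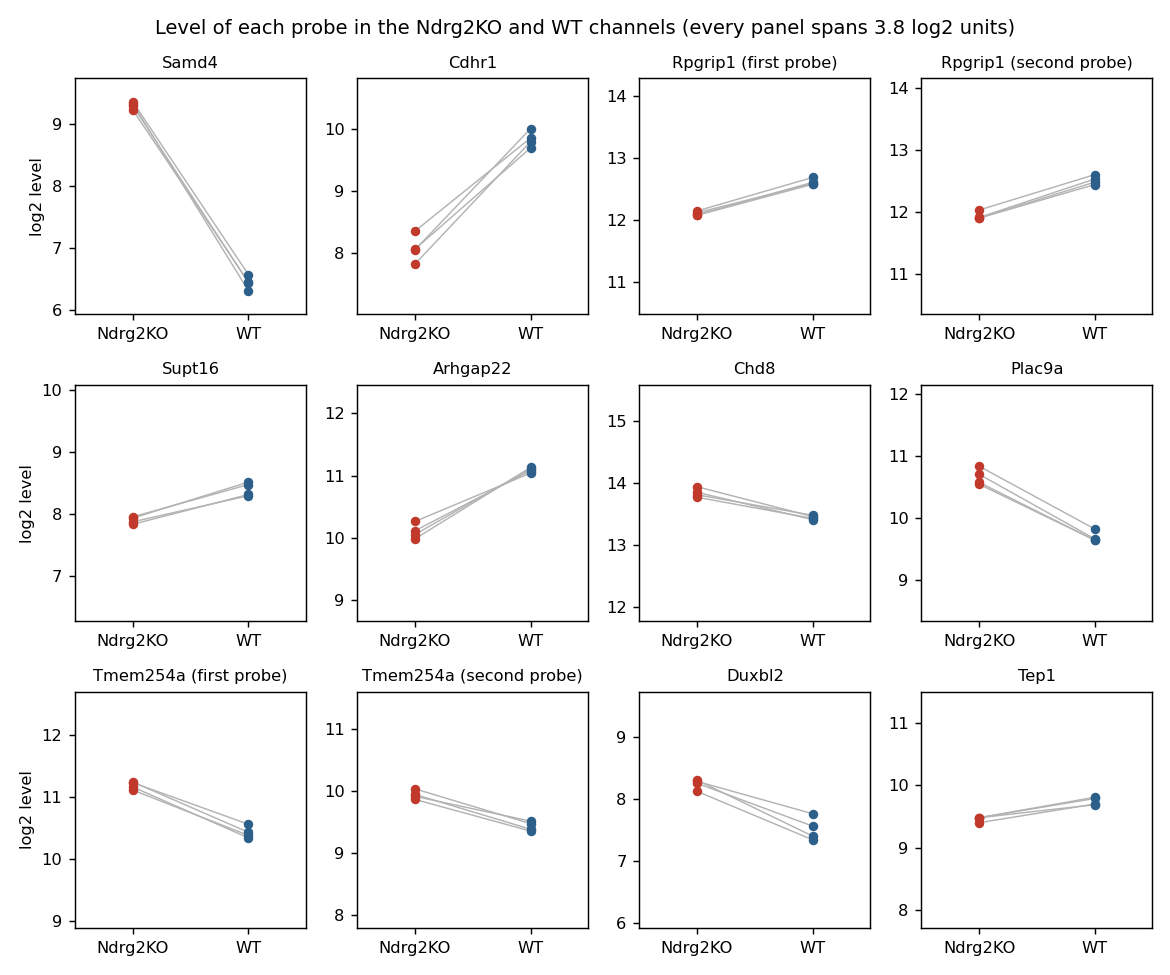
Log2 level of each probe (y axis) in the Ndrg2KO and WT channels of the 4 arrays (x axis), with a line joining the samples of 1 array; every panel spans the same number of log2 units, and levels are not comparable between panels. The lines of Samd4 and Cdhr1 are the steepest, those of Tep1 and Chd8 the flattest, and in no panel do the groups overlap.

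Rpgrip1 was lower at both of its probes. The first had log2 levels of 12.09, 12.12, 12.08 and 12.15 in the samples labelled Ndrg2KO, against 12.61, 12.59, 12.58 and 12.69 in WT. The other had 11.91, 11.90, 11.90 and 12.03 in the samples labelled Ndrg2KO, against 12.53, 12.44, 12.48 and 12.60 in WT. Neither probe's groups overlapped, and the mean log2 ratios were -0.51 ± 0.0311 and -0.58 ± 0.0346 (SD, n = 4). These were the smallest spreads among the 12 probes. With each array centred on its median in place of loess the ratios were -0.85 and -0.92, while the median of all probes tested moved to -0.16, against -0.01 with loess.

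Supt16 and Chd8 are next to each other in the annotation, and Rpgrip1 and Supt16 overlap there. The probe sequences were not used here, so whether a probe tells overlapping transcripts apart was not tested. Supt16 had log2 levels of 7.95, 7.93, 7.83 and 7.87 in the samples labelled Ndrg2KO, against 8.47, 8.51, 8.31 and 8.29 in WT. The groups did not overlap, and the mean log2 ratio was -0.50 ± 0.0688, or 1.42-fold lower. The probe was dim, at 3.88 to 4.31 times its local background in the Ndrg2KO channel and 5.20 to 6.96 times in the WT channel. Its ratio was -0.71 with the scanner software's ratios and -0.60 with an offset of 1. Chd8 went the other way from Rpgrip1 and Supt16: its log2 levels were 13.94, 13.85, 13.81 and 13.77 in the samples labelled Ndrg2KO, against 13.46, 13.41, 13.48 and 13.43 in WT. The groups did not overlap, and the mean log2 ratio was 0.39 ± 0.0754, or 1.31-fold higher. That direction rested on the loess step, since with median centring the ratio of Chd8 was -0.03 and did not pass the threshold. It is the single member value of 144 recomputed under alternatives that changed direction.

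Tep1 had the smallest change of the 12 probes. Its log2 levels were 9.40, 9.48, 9.48 and 9.48 in the samples labelled Ndrg2KO, against 9.70, 9.79, 9.69 and 9.81 in WT. The groups did not overlap, though the mean log2 ratio was no more than -0.29 ± 0.0529, or 1.22-fold lower, and -0.51 with median centring.

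Arhgap22 had log2 levels of 10.26, 10.11, 9.98 and 10.05 in the samples labelled Ndrg2KO, against 11.04, 11.08, 11.13 and 11.11 in WT. The WT samples were nearly level, and array 1 had the highest Ndrg2KO value. The log2 ratios were -0.78, -0.96, -1.15 and -1.06, with a mean of -0.99 ± 0.16, or 1.98-fold lower. Here arrays 1 and 2 had the smaller changes, the opposite of Cdhr1.

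The remaining 3 genes are from the repeated stretch, and all 4 of their probes were higher. Plac9a had log2 levels of 10.55, 10.58, 10.84 and 10.71 in the samples labelled Ndrg2KO, against 9.65, 9.65, 9.83 and 9.67 in WT. Both groups had their highest value on array 3 and did not overlap, and the mean log2 ratio was 0.97 ± 0.0661, or 1.96-fold higher.

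Tmem254a had log2 levels of 11.24, 11.11, 11.16 and 11.23 at its first probe in the samples labelled Ndrg2KO, against 10.43, 10.38, 10.34 and 10.56 in WT. At its other probe the levels were 9.86, 10.03, 9.94 and 9.91 in the samples labelled Ndrg2KO, against 9.35, 9.47, 9.38 and 9.51 in WT. Both probes were higher without overlap, by 1.69-fold and by 1.42-fold, with log2 ratios of 0.76 ± 0.0712 and 0.51 ± 0.0743. With median centring these were 0.47 and 0.29.

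Duxbl2 had log2 levels of 8.30, 8.12, 8.28 and 8.25 in the samples labelled Ndrg2KO, against 7.40, 7.34, 7.76 and 7.56 in WT. The groups did not overlap, at 8.24 ± 0.08 in the samples labelled Ndrg2KO and 7.51 ± 0.19 in WT (SD, n = 4 each), and array 3 had the smallest ratio. The mean log2 ratio was 0.72 ± 0.16, or 1.65-fold higher. The probe was dim, at 5.20 to 5.89 times its local background in the Ndrg2KO channel and 2.80 to 3.68 times in the WT channel.

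Which copy the probes of Plac9a, Tmem254a and Duxbl2 measured was not tested. The upstream windows of Plac9a, at chr14:25902894-25903143, and of its copy Plac9b, at chr14:26182352-26182601, both on the minus strand of GRCm38.p6, are shown because they carry the same letters over 172 bases. Capitals mark that identical run.
Plac9a: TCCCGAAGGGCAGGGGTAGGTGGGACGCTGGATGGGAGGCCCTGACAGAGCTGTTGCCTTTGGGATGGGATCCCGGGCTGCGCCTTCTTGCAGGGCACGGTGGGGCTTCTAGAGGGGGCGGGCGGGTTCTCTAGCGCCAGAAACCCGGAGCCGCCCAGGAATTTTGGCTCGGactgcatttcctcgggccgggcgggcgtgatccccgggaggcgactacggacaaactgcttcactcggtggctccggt
Plac9b: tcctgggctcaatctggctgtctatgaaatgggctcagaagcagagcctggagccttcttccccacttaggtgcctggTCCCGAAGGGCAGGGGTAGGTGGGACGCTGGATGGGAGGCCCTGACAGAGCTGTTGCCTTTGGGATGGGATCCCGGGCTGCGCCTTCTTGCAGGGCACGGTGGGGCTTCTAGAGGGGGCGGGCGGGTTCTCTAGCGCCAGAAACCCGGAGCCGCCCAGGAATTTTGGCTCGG
The run ends where a window ends, so the identity may go further. For Tmem254a, the window before its outer start was identical to one of Tmem254c over 250 of 250 bases and to one of Tmem254b over a run of 234. No probe on the array was named for Plac9b, Tmem254b or Tmem254c, nor for Cphx2, Cphx3, Duxbl3 or Duxf3, other genes of these families. The homeobox genes Cphx1 and Duxbl1 did have a probe. Cphx1 was not well above background in the samples labelled Ndrg2KO on any array. It was 1.13-fold lower there (limma, adjusted p = 0.0497), and the bound set for such a dim probe was the same 1.13-fold. With the scanner software's ratios it did not pass (limma, adjusted p = 0.0599), and with median centring its direction turned, to 0.47 on the log2 scale. Duxbl1 was too dim to be tested.

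Along chromosome 14 the genes were spread widely, with 7 of them at lower coordinates than Ndrg2 and 3 at higher. In the order of the annotation, Plac9a and Tmem254a were adjacent and Duxbl2 followed with 8 genes in between, and these 3 had 588, 587 and 578 annotated genes between them and Ndrg2. Arhgap22 had 424 genes in between, Cdhr1 364, Samd4 159 and Tep1 61. On the other side Rpgrip1 had 11 genes in between, Supt16 13 and Chd8 14. Of these genes, Tep1 and Chd8, among the nearest to Ndrg2, had the smallest changes, and Samd4 and Cdhr1, farther away, the largest. These ratios are what chose the genes, so nothing about distance from Ndrg2 can be read from their sizes. Whether the size of a ratio goes with that distance was not tested. By their brightest tested probe, 31.7% of the 596 tested genes of chromosome 14 passed the limma threshold, against 21.6% of 17014 genes in all, of which 8.89% passed as higher and 12.7% as lower.

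**Figure D3:**
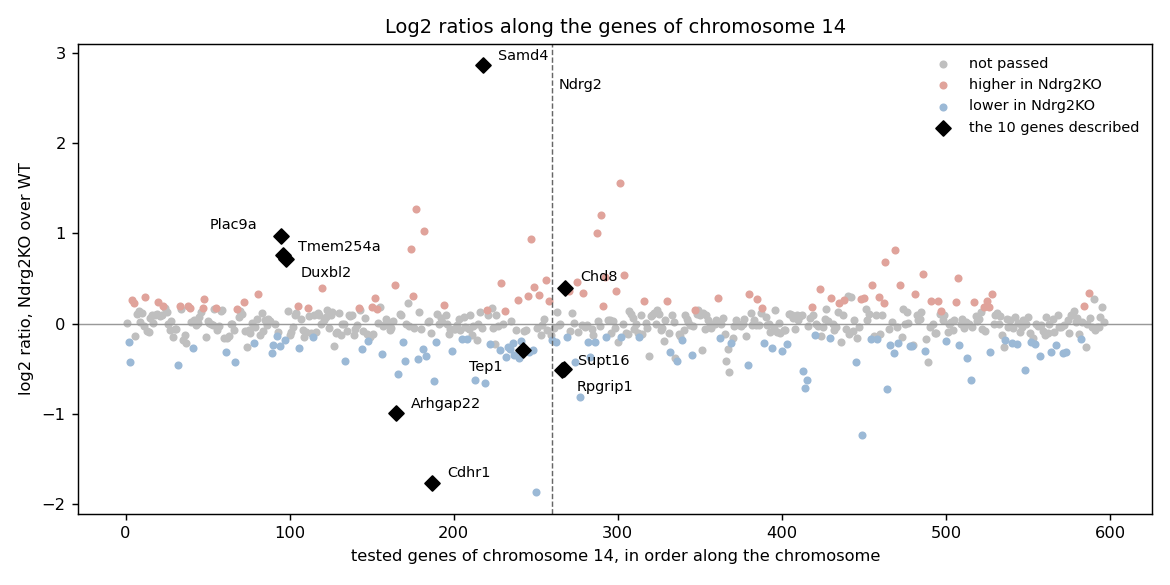
Mean log2 ratio of Ndrg2KO over WT (y axis) for the 596 tested genes of chromosome 14 in their order along it (x axis), with grey for genes that did not pass and red or blue for genes that passed as higher or lower in Ndrg2KO. Black diamonds are the 10 genes, and the dashed line marks Ndrg2. The 10 genes lie on both sides of that line among many genes near 0.

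The genes beside these 10 on the chromosome were taken by position alone, 5 tested genes on each side. Of 61 such genes that were not among the 10, 7 rose, 19 fell and 35 did not pass at their brightest probes (limma, adjusted p under 0.05), so 42.6% passed. That stands beside 31.7% of the tested genes of chromosome 14 and 21.6% of all genes. The median log2 ratio of the 61 was -0.05. A change of at least 1.5-fold was found at 5, beside 0.572% of all probes tested: Ldb3 and Pnp2 rose by 1.02 and 0.94 on the log2 scale, and Gch1, 2610528A11Rik and Bmp4 fell by 0.66, 0.64 and 0.63. Of these Ldb3, Pnp2 and Bmp4 were picked out after their values were seen, and the other probe of Ldb3 was at 0.09 and did not pass. Mapk8, Arhgef40 and Zfp488 fell at their brightest probes, but another probe of each passed as higher, at 0.31, 0.52 and 0.59. Other probes of Ghitm, Zmiz1 and Ttc5 passed in the same direction as the brightest. Fewer of these neighbours passed when any array was left out: 13 without array 1, 13 without array 2, 18 without array 3 and 16 without array 4. Calls over all probes tested also dropped then, from 6338 to between 2420 and 3815. With median centring 44 of the neighbours passed. Of the 26 that passed, 19 had the same direction and passed with the scanner software's ratios as well, and 4, namely Ccnb1ip1, Cphx1, Opn4 and Pip4p1, turned direction with median centring.

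The nearest tested genes of Samd4 and Cdhr1 had smaller ratios than these. Next to Samd4, Cgrrf1 was at -0.05 ± 0.0569 and did not pass (limma, adjusted p = 0.401). On the other side Gch1, the first enzyme of tetrahydrobiopterin synthesis, fell by 0.66 ± 0.416 (limma, adjusted p = 0.0179) at its brightest probe, while its other probe stood at 0.13. Next to Cdhr1, 2610528A11Rik fell by 0.64 ± 0.114 (limma, adjusted p = 0.00149) and Ccser2 was at -0.10 ± 0.0814 and did not pass (limma, adjusted p = 0.151).

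Around Arhgap22, the kinase gene Mapk8 fell by 0.56 ± 0.0921 (limma, adjusted p = 0.00159) at its brightest probe, but its other probes stood at 0.31 and 0.06. Wdfy4, on the other side, rose by 0.43 ± 0.0997 (limma, adjusted p = 0.00315). Near Ndrg2, Rab2b, beside Chd8, fell by 0.15 ± 0.0578 (limma, adjusted p = 0.0483), and the RNA-binding protein gene Hnrnpc, beside Rpgrip1, was at -0.01 ± 0.0966 (limma, adjusted p = 0.933) at its brightest probe. The other Hnrnpc probe was higher, at 0.28 ± 0.0223 (limma, adjusted p = 0.00589). Beside Tep1, Parp2, a DNA repair gene, fell by 0.19 ± 0.127 (limma, adjusted p = 0.0497) and Osgep was at -0.08 ± 0.0133 (limma, adjusted p = 0.189) at its brightest probe. The other Osgep probe was higher, at 0.22 ± 0.11 (limma, adjusted p = 0.0259). Beside Plac9a, Anxa11 fell by 0.25 ± 0.143 (limma, adjusted p = 0.0264) at its brightest probe, while its other probe was at 0.08 and did not pass. The gene 4933413J09Rik, beside Duxbl2, was at 0.14 ± 0.188 (limma, adjusted p = 0.205). The falls of Rab2b, Parp2, Anxa11 and Gch1 did not pass with the scanner software's ratios, whose adjusted p-values in limma were 0.0799, 0.0611, 0.0581 and 0.05.

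**Figure D4:**
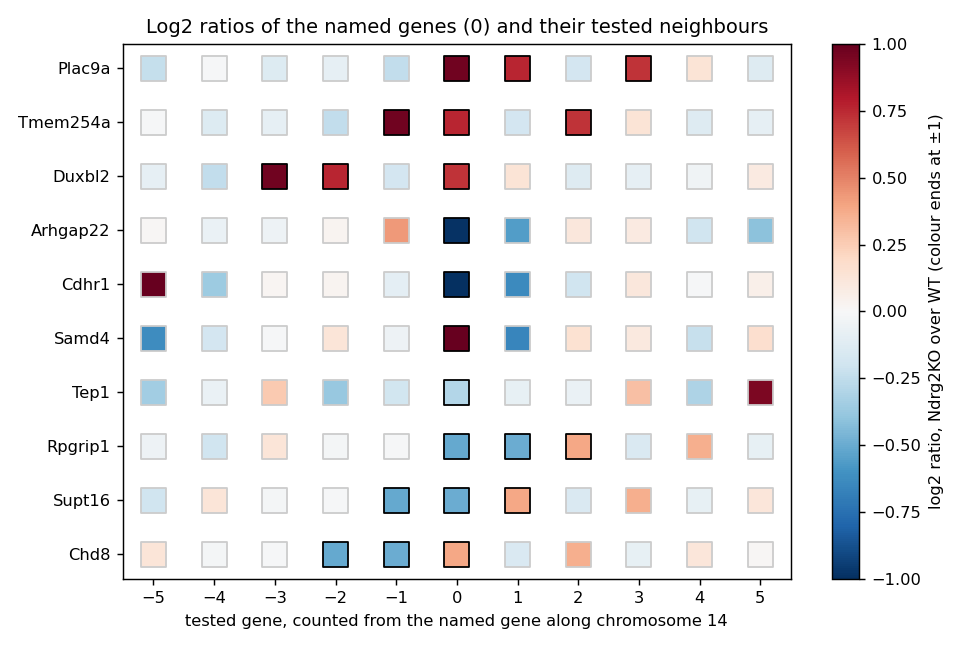
Mean log2 ratio of Ndrg2KO over WT (colour) of each of the 10 genes (rows, in order along chromosome 14; column 0) and of the 5 tested genes on each side (x axis); black frames mark the 10 genes. Samd4 has a pale square on one side, Cgrrf1 at -0.05, and a blue one on the other, Gch1 at -0.66. Rpgrip1, Supt16 and Chd8 stand next to each other, with Rpgrip1 and Supt16 lower and Chd8 higher.

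Known partners and relatives of the 10 genes were described next. Over 7 such lists, 108 genes were tested, of which 5 rose, 13 fell and 90 did not pass (limma, adjusted p under 0.05), so 16.7% passed beside 21.6% of all genes. The count was 6 without array 1, 2 or 3 and 9 without array 4, 10 with the scanner software's ratios and 89 with median centring. Of the 18 that passed, Pum2, Parp4, Terf1 and Pot1a had the same direction and passed in all 12 alternatives run. These counts are by the brightest probe. Where that probe did not pass, another passed as higher for Cnot11, Nasp, Set, Chn1 and Tinf2, and as lower for Dcp1b, Nanos1 and Terf2.

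Of 27 partners of Samd4 in translational repression and CCR4-NOT deadenylation, 1 rose and 2 fell at their brightest probes, with a median log2 ratio of -0.01. Cnot11 was at -0.01 at its brightest probe, but its other probe rose by 0.43 (limma, adjusted p = 0.00227). Other probes of Dcp1b and Nanos1 fell by 0.18 and 0.19 (limma, adjusted p = 0.0458 and 0.0448). The RNA-binding repressor gene Pum2 fell by 0.30 (limma, adjusted p = 0.00999) at its brightest probe, with its other probe at -0.02, and Edc4, a scaffold of decapping, rose by 0.19 (limma, adjusted p = 0.0417). Samd4b, the closest relative of Samd4, was at -0.13 and did not pass (limma, adjusted p = 0.0693). For the photoreceptor and cilium partners of Cdhr1 and Rpgrip1, 21 of 28 genes could be tested, of which 2 fell and 19 did not pass, and their median was -0.02. Rpgr, whose product Rpgrip1 anchors, fell by 0.18 at its brightest probe, but its other probes, at -0.07, 0.01 and 0.10, did not pass. The phosphodiesterase subunit gene Pde6g fell by 0.21. The photoreceptor gene Crx was too dim to test, and 4 other photoreceptor markers (Nrl, Pde6b, Gnat1 and Sag) had summed levels of 709 to 771 in the samples labelled Ndrg2KO and 711 to 753 in WT. These low sums, too, include the offset of 50 added to every probe.

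Of 14 partners of Supt16 among histone chaperones, 2 rose and 1 fell, with a median of 0.09. Ssrp1, the other FACT subunit, was at 0.00 (limma, adjusted p = 0.952) at its brightest probe and at 0.12 at its other, which did not pass either. Hira and Nap1l4, which carry histones, rose by 0.15 and 0.20 (the other probe of Nap1l4 at 0.24), and Daxx fell by 0.15. Of 11 relatives and partners of Chd8, 1 rose and 1 fell: the remodeller gene Chd2 rose by 0.21 at its brightest probe, with its other probes at -0.05, 0.20 and 0.10, and Wdr5 fell by 0.14. Of 15 vault and telomerase partners of Tep1, 1 rose and 3 fell. Parp4, another vault protein gene, fell by 0.35 at its brightest probe, while its other probe was at 0.10, and the telomere-binding protein genes Pot1a and Terf1 fell by 0.47 and 0.30. The telomerase assembly gene Wrap53, named after its value was seen, rose by 0.18. Of 19 relatives and partners of Arhgap22, 3 fell and 16 did not pass: Rac2, a Rac GTPase of blood cells, by 0.37, and the GAP genes Srgap1 and Arhgap17 by 0.33 and 0.21 at their brightest probes. Their other probes did not pass, at -0.21 and -0.04 for Srgap1 and at -0.06 for Arhgap17. The rises of Edc4, Hira, Nap1l4, Chd2 and Wrap53, the 5 list genes that rose, turned to -0.22, -0.13, -0.11, -0.07 and -0.15 with median centring.

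The genes whose 4 log2 ratios lay nearest to those of Samd4 and Cdhr1 were looked up by the root mean square difference over the 4 arrays. Nearest to Samd4 were Myh7, a myosin of heart and slow muscle, at a difference of 1.32, the kinase gene Stk32c at 1.44 and Gm3219 at 1.60, so no gene was close to it. Nearest to Cdhr1 was Rnase4, a secreted ribonuclease gene, at 0.215, with log2 ratios of -1.91, -1.89, -1.76 and -1.89 on the 4 arrays. Tnfrsf10b, a death receptor gene, followed at 0.565 and the protease gene Mmp3 at 0.625. The mean of Mmp3 hid a split, with -2.12 and -2.37 on arrays 1 and 2 against -0.59 and -0.95 on arrays 3 and 4, wider than that of Cdhr1. Of these 6 genes, Myh7, Gm3219, Rnase4 and Tnfrsf10b are on chromosome 14, Stk32c is on 7 and Mmp3 on 9. Of the 17014 genes tested, 596 are on chromosome 14. The 6 genes were found through the ratios that chose Samd4 and Cdhr1, so nothing about the chromosome can be read from their places.

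**Figure D5:**
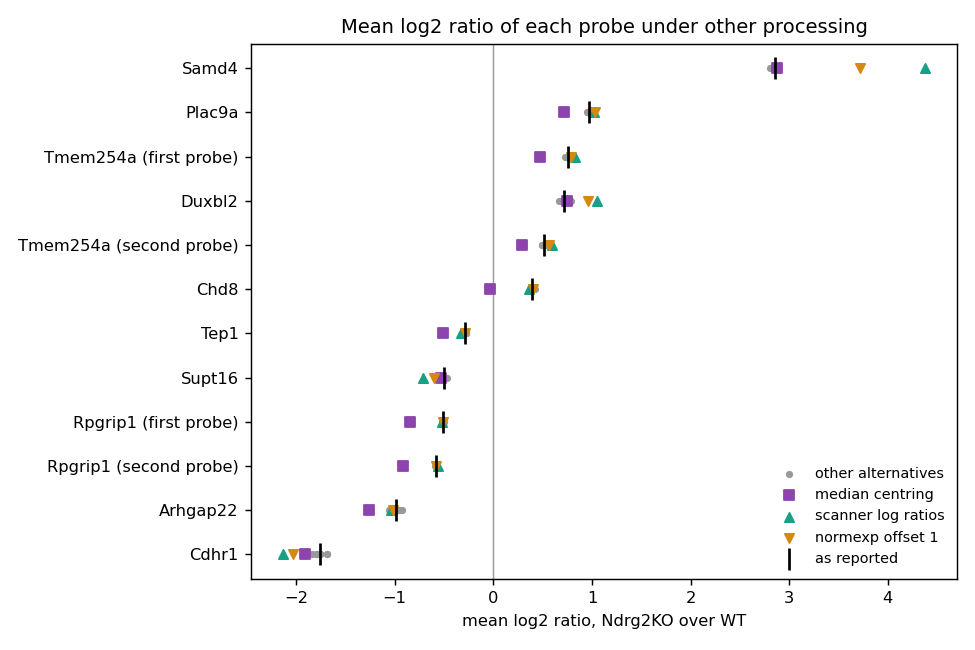
Mean log2 ratio of Ndrg2KO over WT (x axis) of each of the 12 probes (rows) as reported (black bar) and under the 12 alternatives (markers). Samd4 moves out to 4.38 with the scanner software's ratios, and Chd8 crosses 0 to -0.03 with median centring.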

How the data were processed

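The 10 genes and the gene lists were chosen with earlier results of these data known. Per the labels' protocols, 200 ng of total RNA per sample was labelled by linear amplification; the same text names shoots as the material, which is not this tissue. The deposited linear intensities of spots and local background came from Agilent Feature Extraction 11.0.1.1 per the file headers, or 10.7.3.1 per the submitters' processing notes. Per the file headers, each spot also has a log10 ratio, Cy5 over Cy3, of processed signals. The deposited series matrix holds log2 values that equal WT over Ndrg2KO of those signals within 0.001 for 39030 probes, the direction opposite to the one used here, with column medians of -0.0536, -0.0565, -0.0378 and -0.0309. Deposited flags are other values per the file headers, 0 or 1.

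Median signals were corrected with normexp (offset 50) and normalized by loess within arrays in limma 3.58.1 (R 4.3.3), control spots at weight 0; the mean signals were not used here. The 139 to 186 outlier spots per array were left out. A probe was tested when well above background on at least 3 of 4 arrays in either channel, every probe apart. Levels are log2 channel values after loess and Aquantile. Ratios were tested against 0 in limma (lmFit, eBayes) with Benjamini-Hochberg adjustment over all probes tested, so the array pairs the samples of 1 replicate number. A gene with several probes counts by its brightest. A probe not well above background in a channel gets a bound, set against the higher of its own signal and the lowest signal well above background. Spike-in log ratios had slopes of 0.728 to 0.739, so ratios were compressed. The steps were tested on simulated data. Accessions, gene order and promoters came from RefSeq tables (GRCm38.p6), which named 69.6% of probes; 8 of the 10 genes had a promoter window.

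Named genes were the 10 with every probe, Ndrg2, up to 3 passing genes with the smallest p per list, the nearest tested gene on each side, the 3 genes nearest in pattern to Samd4 and to Cdhr1, and the repeat copies; some genes that this rule or the marker lists hold are not reported here. Cell type markers are given beside them. Alternatives were other background and scaling steps, filters, scanner ratios, no pairing and leaving out each array.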

Additional observations from a re-analysis of the deposited data

Results flagged for a closer look

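A probe of Nap1l4, a histone chaperone gene, had log2 ratios of 0.22, 0.21, 0.32 and 0.23, where the gap between array 3 and the nearest of the others was 0.874 of the whole range. Parp2, the gene beside Tep1, stood at -0.10, -0.38, -0.15 and -0.14, and array 2 was apart by 0.831 of the range. Rnase4, the gene nearest to Cdhr1 in its 4 ratios, had array 3 apart by 0.889 of the range, at -1.76. Chance alone marks about 1 in 20 such groups of 4 values, and 3 of 66 probes screened were marked here. None of the 12 probes of the 10 genes was among these 3.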

How the results depend on the processing

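Of 144 values of the 12 probes under alternatives, 143 had the direction and the call of the reported value; the exception was Chd8, at -0.03 with median centring. All 12 probes passed in each alternative but median centring, where 11 did. This contrast chose the 12 probes, so nothing can be read from their keeping the call. The sizes of their ratios did move. Samd4 went from 2.86 to 4.38 with the scanner software's ratios, and the second Tmem254a probe from 0.51 to 0.29 with median centring. The background counts moved too. Over all probes, 2811 rose and 3527 fell. With median centring these were 7883 and 15614, and without the replicate block, the 8 channels taken as separate samples, 1645 and 1748. Probes that fell numbered 2166 with an offset of 1 and 2028 with the scanner software's ratios. Leaving out 1 array gave 1064 to 1651 probes that rose and 1356 to 2164 that fell. Of the list genes, 18 passed, against 89 with median centring, 10 with scanner ratios and 6 to 9 with 1 array left out. Of the neighbours, 26 passed, against 44 with median centring and 13 to 18 with 1 array left out. Beyond the Chd8 call, no probe of the 10 genes gained or lost its call with the pairing or the other settings run. The 4 arrays limit precision, and for Samd4 the WT signal near background limits the size of its ratio.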
